A study of Mus musculus with 661 samples.

Results

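Cluster E7, the sinusoidal endothelial cluster, held 105 of the 661 single stromal cells of the series and 105 of its 307 endothelial cells. Its members were all cells sorted as AEC or SEC whose label places them in this endothelial cluster. The clusters come from ICGS (iterative clustering and guide-gene selection), which the authors ran on these cells. They named E7 SEC-like, E3 and E4 AEC-like, E5 arteriolar and E6 transition vessels, and they marked E1 as mesenchymal and endothelial doublets and E2 as pericytes. Because the clusters were built from the same counts, every difference between E7 and the other clusters is a description and none was tested.

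Sinusoids are the wide, thin-walled vessels that collect blood from the marrow and carry it to the central vein. Their endothelial cells take up waste macromolecules from blood through scavenger receptors, rest on a discontinuous basement membrane, and form the wall through which blood cells enter and leave the marrow. Arteriolar endothelium, by contrast, carries Notch ligands, connexins and a continuous basement membrane.

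The cells came from wild-type C57BL/6 mice of both sexes without treatment, 3 young (6 to 12 weeks) and 4 old (at least 18 months). SEC were sorted from the central marrow as Ter119-/CD45-/CD31+/Sca-1lo/CD105hi, and AEC from the endosteum, the bone surface, as Sca-1hi/CD105lo cells of the same gate. E7 held 59 of 70 young and 44 of 71 old sorted SEC, 2 of 84 young AEC and 0 of 82 old AEC. The labels do not name the mouse of a cell, so the E7 cells of an age were pooled over mice and no test between ages over mice was possible. Sorted SEC fall into 6 unbroken runs of library numbers, 3 of each age, numbered here in that order; whether a run is a mouse, a plate or a day is not known, so runs are not replicates.

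The libraries were full-length and carried no molecular identifiers. The deposited counts of nuclear genes per E7 cell ranged from 71320 to 452273, with a median of 307689, against a median of 382472 in the 202 cells of E1 to E6. E7 cells held 3919 to 7920 genes (median 6084), and mitochondrial counts took 0.597 to 8.10% of all counts (median 1.46%). All E7 cells lay in the last of 3 ranges of library numbers, together with 83 cells of E1 to E6. Those 83 cells had a median of 283163 counts, and values against them alone are given for the markers, the largest increases, the counts of genes and list medians that differed most. Levels are counts-per-million values (CPM) from the summed nuclear counts of a cluster, and a cell carries a gene at 10 CPM or more. Intervals are 95% exact Poisson (CPM) or Clopper-Pearson (shares) and cover counting error only.

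The markers of sinusoidal endothelium were carried by almost every member. Stab2, a scavenger receptor that clears hyaluronan and other ligands, lies on chromosome 10 from 86841198 to 87008025 and was at 8448 CPM in E7 (8416 to 8479.8) and 263 CPM in E1 to E6. Per cell it ran from 1587 to 25818 CPM, with a median of 8053. Stab1, its homologue (chromosome 14, 31139013 to 31168641), was at 2090.2 CPM (2074 to 2106) against 276. So both stabilins stood far above E1 to E6 as a whole. Flt4, the receptor for VEGF-C (chromosome 11, 49609263 to 49652739), was at 2060.2 CPM (2044 to 2076) against 218. Vcam1, an adhesion molecule for leukocytes bearing the integrin VLA-4 (chromosome 3, 116109949 to 116129688), was at 3126 CPM (3106 to 3145) against 301. Only Vcam1 is shared with the stroma: it was at 1886 CPM in the 111 MSC-L, the mesenchymal stromal cells sorted from the marrow, where Stab2 was at 0.780 CPM. Within the library range of E7 the log2 ratios were 3.42 for Stab2, 2.14 for Stab1, 2.54 for Flt4 and 2.44 for Vcam1, against 5.00, 2.92, 3.23 and 3.37 over all of E1 to E6. Coordinates are those of GRCm38.

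All 4 markers were carried by 104 of 105 E7 cells (99.0%, 94.8 to 100%), and the remaining cell carried 3 of them. In E6 12 of 24 cells carried all 4, in E1 10 of 14, and in E4 2 of 59. No cell did so among 60 of E3, 37 of E5, 8 of E2 and 111 MSC-L, where a count of 0 leaves an upper bound of 5.96, 9.49, 36.9 and 3.27%. With each cell thinned to 100000 counts, which left out 1 E7 cell, at least 1 count of every marker was found in 104 of 104 E7 cells. By this measure all 4 were found in 14 of 24 cells of E6, 11 of 14 of E1 and 3 of 59 of E4. In E5 it was 2 of 36, in E3 1 of 60, in E2 0 of 8 and in MSC-L 0 of 109. All 4 markers are among the guide genes that built the clusters, so this is a check of the label and not a finding.

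**Figure D1:**
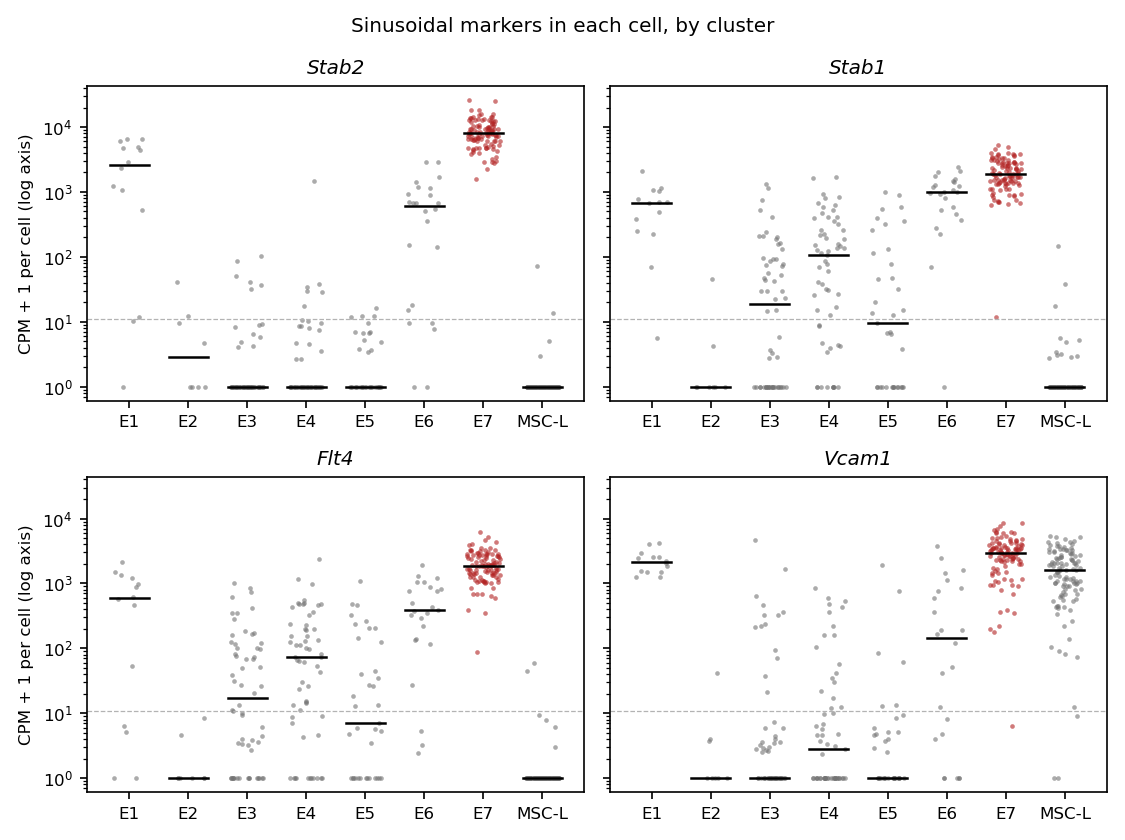
Level of Stab2, Stab1, Flt4 and Vcam1 in every cell (CPM + 1, log axis) of E1 to E7 and of sorted MSC-L; each point is 1 cell, bars are medians, and the dashed line is 10 CPM. The median of Stab2 was 8053 CPM in E7, and 97.3% of MSC-L carried Vcam1.

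Arteriolar markers were scarce. Of 6 fixed markers (Efnb2, Gja4, Gja5, Sox17, Bmx and Ly6a), an E7 cell carried a median of 1 and at most 3, and 21 cells carried none; the median was 5 in E3, 4 in E4, 3 in E5, 2 in E6 and E2, and 1 in E1, which was like E7 in this. General endothelial identity was whole: of 15 pan-endothelial genes, including Cdh5, Kdr, Tek and Cldn5, an E7 cell carried a median of 14. Their summed level was 15223 CPM in E7 and 13713 CPM in E1 to E6.

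Sort and cluster parted in 38 of 141 sorted SEC, which lay outside E7: 14 in E6, 13 in E1, 6 in E4, 2 in E3, 2 in E5 and 1 in E2. The ages were uneven: 12 old and 2 young cells in E6, 6 and 0 in E4, and 4 and 9 in E1. The sorted SEC in E2, E3 and E5 were all old. Those in E6 had Stab1 at 987 CPM but Stab2 at 601 CPM, and the progenitor and arteriolar antigen Cd34 at 1342 CPM, where the 103 sorted SEC of E7 had 11.1 CPM. Sorted SEC of E1 had Stab2 at 3208 CPM together with the stromal chemokine Cxcl12 at 29697 CPM. The 2 E7 cells sorted as AEC had Stab2 at 6437 and 9206 CPM, within the range of the other members. Their Vcam1 was 1132 and 689 CPM, below the median of 2971 CPM, and their summed immediate early genes were 3505 and 42.2 CPM, where the median E7 cell had 20139.6.

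Against E1 to E6, more of the tested genes were 4-fold lower in E7 than 4-fold higher. Of 15881 genes that had 100 or more counts and were seen in 5 or more cells, 469 (2.95%) were at least 4-fold higher in E7 and 1250 (7.87%) at least 4-fold lower, on the log2(CPM + 1) scale. The median log2 ratio over all of them was -0.14. The filter ran over both groups, with 202 cells in E1 to E6, so genes counted mainly in those clusters passed it at a lower level. Against E3 to E6 only, 624 of 15377 genes were higher and 1106 lower. Of the 469 higher genes, 414 were higher than in each of E1 to E6, and 252 were also 4-fold higher when E7 was set against cells of its own library range only, with the genes passing the filter over all cells. Of the lower genes, 941 were 4-fold lower within that range. Guide genes, from which the clusters were made, were 111 of the higher and 338 of the lower genes. Few of the higher genes were common to all cells: 61 were carried by at least 90% of E7 cells, 155 by at least 50%, and 109 by under 10% of them. Most genes named below as higher in E7 are guide genes; those that are not are Ackr1, Adgrg6, Car2, Cd14, Ctss, Cxcl10, Ehd3, Fcgr2b, Fgf23, Hgf, Lrp8, Madcam1, Meis1, Msr1, Pkp2, Tfec and Thbd. Counts over gene lists cover the members that passed the count filter. They stand beside shares of 2.95% higher and 7.87% lower over all tested genes, and a list with 1 or 2 such genes can lie near these shares. Against cells of the same library range only, the log2 ratios of Apoe, Ehd3, Fcgr2b, Fcgrt, Hgf, Kcnj8, Lrp8, Maf, Meis1, Msr1, Nr2f2, Slc9a9, Tfec and Thbd were smaller than 4-fold, from 0.99 (Msr1) to 1.90 (Thbd).

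Genes with the largest ratios that at least 50% of E7 cells carried included an endocytic adaptor, an alcohol dehydrogenase and secreted guidance and matrix-cleaving proteins. Ston2, a stonin that sorts cargo into clathrin pits, was at 277 CPM in E7 and 4.87 CPM in E1 to E6 (log2 ratio 5.57), and 84 of 105 cells carried it. The alcohol dehydrogenase Adh6b was at 330.4 CPM against 10.5 (4.85), and it was close to 0 in E3 and E5, at 0 and 0.178 CPM. Adamts5, a protease of aggrecan and versican, was at 1356 CPM against 36.5 (5.18), Sema3a, a secreted guidance cue, at 393 against 10.5 (5.10), and the adhesion receptor Adgrg6 at 454 against 12.8 (5.04). Lipg, endothelial lipase, was carried by 103 cells and Sirpa, the receptor of the don't-eat-me signal CD47, by 99 cells, at 785 and 554 CPM. The adhesion protein Cxadr was at 397 CPM and the complement receptor C5ar2 at 111 CPM. Cdkl1, Crygn, Tmem132e and Ccdc69 were also among the 15 largest increases, with log2 ratios of 4.90, 4.76, 4.72 and 4.72. Within the library range of E7 the 15 ratios ran from 2.94 (Sirpa) to 4.13 (Ston2), and E1, the doublet cluster, was the next highest cluster for each of them. Adgrg6 alone among the 15 was not a guide gene.

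Some receptors and proteases for taking up and digesting ligands were high in E7. Of 17 scavenger and pattern-recognition receptors, 6 were 4-fold higher and 1 lower (median log2 ratio 0.86). Beside the stabilins, Mrc1, the mannose receptor, was at 858 CPM against 49.4 and was carried by all 105 cells. Fcgr2b, the inhibitory Fc receptor that takes up immune complexes, was at 258 CPM against 39.4 and was carried by 65 cells. Msr1 and Cd14 were carried by 19 cells each, so their higher sums came from a minority. Lrp1, a broad endocytic receptor, was the lower gene (19.3 against 131 CPM). Not all receptors known from lymphatic or other sinusoidal endothelium were high. Lyve1 was at 0.0318 CPM, and Cd209b and Clec4g had no count in E7, where 3 counts would be 0.0954 CPM.

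Of 32 endocytosis and lysosome genes, 4 were 4-fold higher and 1 lower, and the list summed to 19432 CPM in E7 against 7967 CPM in E1 to E6. The lysosomal proteases Ctsl and Lgmn led: Ctsl was at 6879 CPM against 655 and Lgmn at 1163 against 155. Ctsb, another cathepsin, differed less (2758 against 1029.9 CPM, log2 ratio 1.42), and the clathrin heavy chain Cltc was at 614 against 319 CPM. Ehd3 and Ehd4, related proteins that recycle membrane, went opposite ways, with Ehd3 at 147 against 31.5 CPM and Ehd4 at 12.0 against 219 CPM. The other higher gene, Ctss, rested on 3 cells.

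For lipid handling, 3 of 17 genes were 4-fold higher and 2 lower. Apoe, the apolipoprotein, was at 4773 CPM against 1002, and Lrp8, an apolipoprotein E receptor, was at 17 against 3.24 CPM and carried by 19 cells. Fabp4, a fatty acid carrier, was at 8098 against 2437 CPM, and Pparg, the nuclear receptor that drives Fabp4 in fat cells, at 407 against 103 CPM; both fell short of 4-fold. Pltp and Vldlr, which handle lipoproteins, were the lower genes.

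Several venous genes were higher in E7 and most arterial genes lower. Nr2f2, the transcription factor of venous identity, was at 286 CPM against 45.7 and was carried by 102 cells. Ackr1, the chemokine-binding receptor of venules, was at 1645 CPM against 163. Mmrn1, a factor V-binding protein, and Il6st, the shared receptor chain of the IL-6 family, made 4 higher genes of 9 in the venous and lymphatic list. Lymphatic genes were not all high: Pdpn and Ccl21a had no count and Prox1 was at 8.39 CPM, whereas Mmrn1 and the lymphatic receptor Flt4 were higher. Vwf, von Willebrand factor, was at 41.6 CPM against 455.

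Of 16 arterial genes, 0 were higher and 13 lower, with a median log2 ratio of -5.03, and the list summed to 864 CPM in E7 against 12008 in E3. Gja4 and Gja5, connexins of arterial junctions, were at 0.191 and 0.763 CPM in E7, with Gja4 at 545 CPM in E3. Hey1, a Notch target, was at 0.127 CPM, and Efnb2, the arterial ephrin, at 10.2 CPM. Its receptor Ephb4, known from veins, was the exception in that list at 290.2 CPM against 230.5. Ly6a, which encodes the Sca-1 antigen used in the sort, was at 198 CPM against 1507, while Eng, which encodes the sort antigen CD105, was at 2689 against 1315 CPM.

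Coagulation genes also went both ways. Tfpi, the inhibitor of tissue factor, was at 4387 CPM against 283, and Thbd, the thrombin receptor that starts protein C activation, at 1509 against 340.4. F8, which encodes clotting factor VIII, was at 1033 CPM against 87.6 and was carried by all 105 cells, so not every higher gene of this list is an anticoagulant. Plat, which cleaves plasminogen to start fibrinolysis, was at 0.699 CPM against 196. In all, 4 of 18 coagulation genes were 4-fold higher and 6 lower.

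Adhesion molecules went both ways. Sele, E-selectin, was at 1119 CPM against 105 and was carried by 99 cells; Selp, P-selectin, was at 709 against 210.1 CPM, short of 4-fold. Madcam1, the ligand of a gut-homing integrin, was at 25.8 CPM in E7 and 0.161 CPM in E1 to E6, but rested on 10 cells. With Vcam1 these were 3 higher genes of 18, and 5 were lower, among them Jam2 (16.8 against 653 CPM), Cd44 and Cd34. Icam1 did not differ in the same way (474 against 589 CPM).

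Genes of caveolae and of the basement membrane were among those lower in E7. Cav1, the caveolin that builds caveolae, was at 5.15 CPM in E7 against 2595, and only 7 E7 cells carried it. Cav2 was at 38.2 against 294 CPM and Ptrf, the caveolar coat protein cavin, at 161 against 667. Plvap, which forms the diaphragms of fenestrae and of caveolae, was not low (2906 against 1456 CPM). Of 15 junction and diaphragm genes 7 were lower and 0 higher. Of 20 basement membrane and matrix genes 10 were lower and 0 higher, with a summed level of 9675 CPM against 15203. Fibronectin, Fn1, was at 1.18 CPM against 946, Fbln2 at 1.43 against 1167 and Sparcl1 at 0.795 against 1797. These losses were large but not general: the laminin chain Lamb1 was at 2.38 CPM, whereas nidogen Nid1 was at 907 CPM against 238 and perlecan, Hspg2, at 1753 against 1609.6. The remaining genes of the 10 largest decreases were Cdh13, Stmn2, P2ry2, Atp2a3 and Ackr3, each under 2 CPM in E7 and at 236 to 871 CPM in E1 to E6. Cav1, Gja4 and the matrix genes above make up the rest, and Ackr3, a scavenger of CXCL12, was the member of these 10 that was not a guide gene.

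**Figure D2:**
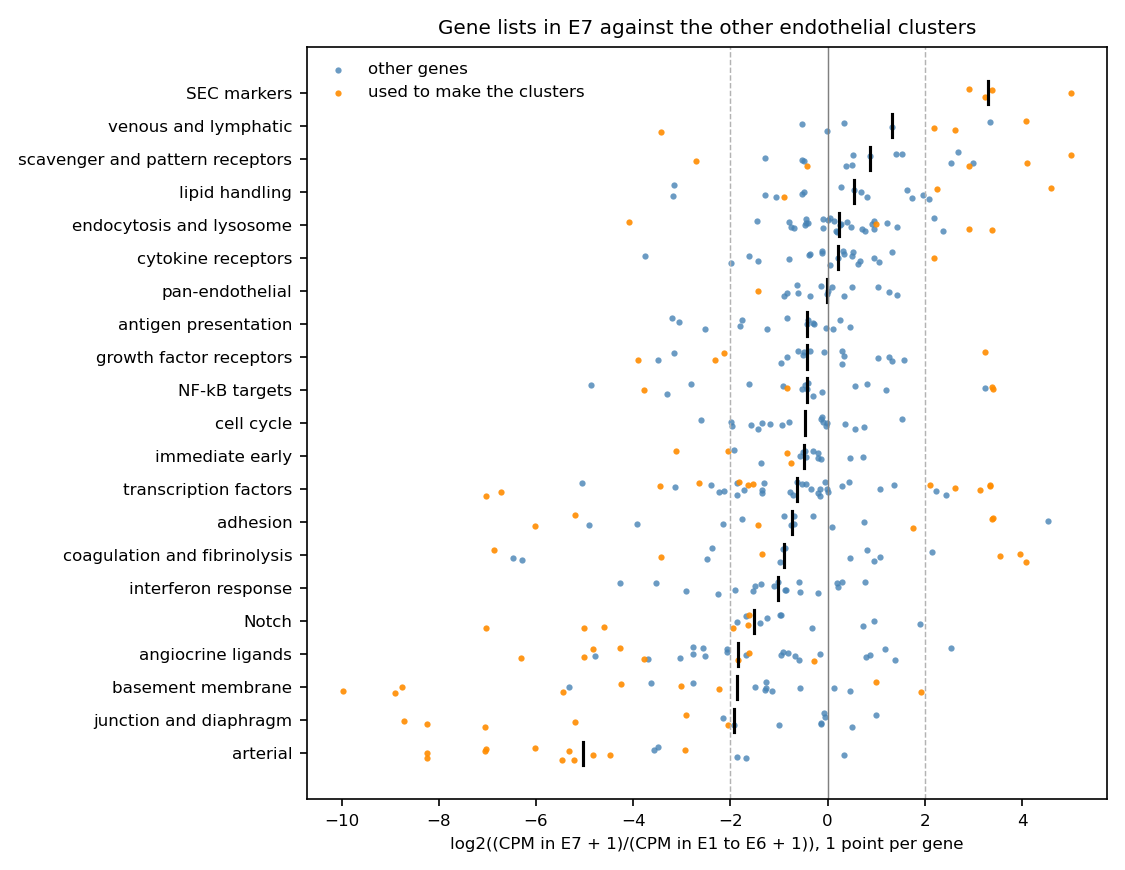
Log2 ratio of CPM + 1 in E7 over E1 to E6 for each gene of the endothelial and pathway lists; each point is a gene, bars are list medians, orange points are guide genes used to make the clusters, and dashed lines mark 4-fold. List medians ran from -5.03 (arterial) to 3.30 (the 4 markers), and most lists held genes on both sides.

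Among ligands that endothelium offers to blood-forming cells, more were lower than higher. Of 29 angiocrine genes 14 were lower and 1 higher. Of the lower ones, Wnt9b was not lower within the library range of E7 (log2 ratio 0.19), Il7 not without E1 and E2 (0.24), and Ccl9 not without cells carrying markers of another type (0.0553). Kitl, stem cell factor, was at 24.5 CPM in E7 against 494, and was carried by 12 cells. In the 11 E7 cells with stromal transcripts, described below, Kitl was at 201 CPM, and in the other 94 at 4.42 CPM. Cxcl12 was at 1007 against 4258 CPM with very uneven cells, described below. Without E1 and E2, the comparison was with 2711 CPM and fell short of 4-fold (log2 ratio -1.43). Hgf, hepatocyte growth factor, was the higher gene (32 against 4.68 CPM, 26 cells). Of 16 Notch pathway genes 3 were lower and 0 higher, with Jag2 at 7.09 against 262 CPM and Notch1 similar in both (957 and 1189 CPM).

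Fgf23, a hormone that lowers blood phosphate, was singled out after its values were seen. It was at 257 CPM in E7 against 4.02 CPM in E1 to E6 (log2 ratio 5.68), and 39 of 105 E7 cells carried it while 62 had no count. The highest cell had 3386 CPM. By run it was at 125, 213 and 123 CPM in young and 696, 25.0 and 347 CPM in old cells, so every run had it and the ages overlapped. Epor, the erythropoietin receptor, was at 238 CPM against 18.9 and was carried by 70 cells.

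Among transcription factors, 7 of 41 were higher and 9 lower. Maf, a leucine zipper factor, was at 154 CPM in E7 against 35, and Irf8, better known from myeloid cells, at 389.7 against 37.6. Maf was carried by 100 and Irf8 by 97 cells. Meis1, Meis2 and Tfec were higher too but were carried by 8, 30 and 22 cells. Gata4, which specifies liver sinusoids, and Gata6 had no count in E7. Sox17 was at 92.8 against 342 CPM, Meox2 at 0.0954 against 115, and the general endothelial factors Erg and Fli1 were within 4-fold.

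Among receptors, Flt4 and Il6st were the higher genes of their lists. In each list 1 gene was higher, of 20 growth factor receptors and 21 cytokine receptors, and 5 (Fgfr1, Fgfr3, Pdgfrb, Met and Egfr) and 1 (Il6ra) were lower. Pdgfrb was not lower when E1 and E2 were left out (log2 ratio 0.0570). Il6st was at 4123 CPM against 906 while Il6ra, which binds IL-6 itself, was at 0.922 CPM. Of 19 NF-kB target genes 3 were higher (Sele, Vcam1 and Cxcl10) and 4 lower, among them the neutrophil chemokine Cxcl1. Of 19 interferon-response genes 4 were lower and 0 higher, and of 15 antigen presentation genes 3 were lower, namely the class II genes H2-Eb1, Cd74 and H2-DMa. Over all tested genes, 2.95% were higher and 7.87% lower. Among the endothelial and pathway lists, medians within the library range of E7 differed from the main ones most for junction genes (-0.55 against -1.93), followed by arterial genes (-4.14 against -5.03) and the markers (2.49 against 3.30). Antigen presentation genes had -1.07 against -0.42, venous and lymphatic genes 0.68 against 1.32, and NF-kB target genes 0.13 against -0.43. The medians of the NF-kB, lipid handling (-0.02 against 0.54), cytokine receptor (-0.02 against 0.21) and pan-endothelial (0.27 against -0.01) lists changed sign. Cell cycle genes summed to 189 CPM over the whole list in E7, and 0 of 18 were higher and 1 lower.

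Levels of different genes can be compared only per length. In CPM per kilobase of exon, Lrg1, a secreted glycoprotein that modulates TGF-beta signalling in vessels, ranked highest of the protein-coding genes in E7 (3680.0), ahead of Fos (2823), Igfbp7 (2401) and Cldn5 (2317). Lrg1, Igfbp7 and Fcgrt were named after their values were seen. Apoe ranked 5, Fabp4 6, Ackr1 11 and Ctsl 15. Fcgrt, the neonatal Fc receptor that recycles antibodies and albumin, ranked 14 at 1076. Of the markers, Stab2 ranked 17 at 965, Vcam1 67 at 352, Flt4 91 at 250.3 and Stab1 121 at 203. Stab2 was thus more abundant per length than the other 3 markers. Exon lengths came from GENCODE and matched 91.4% of the nuclear genes.

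Markers of other cell types were measured as whole lists. The hematopoietic list summed to 39.5 CPM in E7, with 0 of 11 genes higher, Lyz2 the most abundant at 12.3 CPM and the leukocyte antigen Ptprc (CD45, gated out in the sort) at 0.318 CPM. The macrophage list summed to 4209.8 CPM, nearly all of it from Vcam1 and Mrc1, the 2 higher genes of 7; Adgre1, Fcgr1 and Timd4 had no count, and C1qa was at 1.56 CPM. The megakaryocyte list summed to 39.2 CPM, with Clec1b the most abundant at 12.9 CPM and 0 of 12 genes higher. The erythroid list summed to 439 CPM against 44, with 5 of 9 genes higher, but its most abundant genes were Epor and Car2 (146 CPM), carried by 70 and 68 cells, while Rhag had no count and Hbb-bs was at 24.7 CPM with 50.9% of its CPM in 1 cell. The pericyte list summed to 3292 CPM, of which Abcc9 gave 2018 and Kcnj8 746, the subunits of an ATP-sensitive potassium channel, carried by 105 and 89 cells. The pericyte markers Rgs5, Cspg4 and Acta2 were at 0.382, 0.0318 and 1.21 CPM. Of the 12 genes in the list 2, the channel genes, were 4-fold higher and 9 lower. In all, 3 genes were above E1 to E6 by any amount, and 3 were carried by at least 50% of E7 cells.

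The mesenchymal list differed from the others because it was concentrated in a few cells. It summed to 1448 CPM in E7 against 61692 in MSC-L, with Cxcl12 most abundant and Lum and Bglap at 0. Of 15 genes, 0 were higher than in E1 to E6 and 7 lower. Among the clusters compared, the list summed to 42961 CPM in E1, 4777 in E4 and 4476 in E5. It was below E7 in E2, E3 and E6, at 1426, 1343 and 874 CPM. By run of E7 the list was at 421, 1231 and 3305 CPM in young and 969.5, 1554 and 1008 CPM in old cells. At least 4 of its genes were carried by 11 E7 cells, 7 young and 4 old. In these 11 cells Cxcl12 was at 7432 CPM, Lepr, the leptin receptor that marks marrow stroma, at 695 and Adipoq at 343. In the other 94 cells they were at 280.1, 94.2 and 2.80 CPM. Stab2 was at 7654 CPM in the former and 8537 CPM in the latter, so the cells with stromal transcripts had sinusoidal ones too. In the 11 and the 94 cells, the medians were 284202 and 309738 counts and 6464 and 6072 genes. Doublets were not called here, and whether these cells are doublets, cells with adhering stromal RNA or expressing cells was not tested.

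E7 was nearest to E6 among the other clusters. Over the tested genes on the log2(CPM + 1) scale, the mean profile of E7 had a Pearson correlation across genes, which are not independent, of 0.913 with E6, 0.850 with E4, 0.840 with E1, 0.820 with E5, 0.786 with E3 and 0.651 with E2. Cell by cell, 104 of 105 members lay nearest to the mean of E7, at a median correlation of 0.660 against 0.607 for the next cluster, which was E6 for all but 4 cells and E1 for those. Without the guide genes all 105 lay nearest to E7. The clusters were built from the same counts, so this nearness is a check of the label and not a separate finding. Members resembled each other about as much as cells of E3 and E4 did: the median correlation between pairs of cells was 0.439 in E7 and 0.423 in E3 and E4.

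Cell-to-cell spread was measured for 3953 genes with a mean of at least 50 CPM as the coefficient of variation (CV) of CPM over the 105 cells, divided by the median CV of the genes nearest to it in mean. The median CV was 1.53, so most genes of this level varied by more than their mean. Stab2, Stab1 and Flt4 varied less than genes of their level, and Vcam1 about as much: the CV was 0.491 for Stab2, 0.501 for Stab1, 0.514 for Flt4 and 0.577 for Vcam1, and the relative spread 0.828, 0.845, 0.867 and 0.974. For Vcam1 it ranged from 0.899 to 1.01 over the alternatives. All 4 are guide genes that helped decide which cells are in E7, so their spread within it is not independent of that choice. Summed over the 4 genes, runs were alike, at 15687, 16739 and 15259 CPM in young and 15123, 15389 and 16463 in old cells. The markers rose and fell together weakly or not at all: over the cells, Spearman's rho was 0.271 for Stab2 with Stab1, 0.208 with Flt4 and -0.0394 with Vcam1. Vcam1 had a rho of -0.169 with Stab1 and -0.0956 with Flt4, and Stab1 0.211 with Flt4, where pairs of all genes of this level had a median of 0.0160. Correlations over cells are descriptions and share the depth of each cell. Other genes high in E7 differed in spread. The relative spread was 0.710 for Il6st, 0.715 for Ctsl, 0.648 for Tfpi, 0.661 for Maf and 0.730 for Nr2f2, but 1.14 for Adgrg6, 1.55 for Adamts5, 1.79 for Ackr1 and 1.81 for Adh6b.

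A relative spread of at least 2 was reached by 36 genes (0.911%). The highest was Cxcl12 (4.23), whose median cell had 23.4 CPM and whose highest cell had 18612 CPM. Of the 36 genes, 9 were at least 10-fold higher in MSC-L than in E7, among them Ebf3, a stromal transcription factor, the complement inhibitor Serping1 and the bone matrix gene Ibsp. These 9 genes varied together, with a median rho of 0.383 between pairs. A further 24 were lower in MSC-L than in E7. Among these were Cd14 (3.46), a receptor for bacterial lipopolysaccharide, the imprinted gene Mest (2.68), the protease Adamts1 (2.55), the interferon-induced chemokine Cxcl10 and Fgf23, each still past 2 without its highest cell, and the adhesion molecule Icam1, which fell to 1.66 without it. For Cd14 1 cell held 43.6% of the summed CPM, for the class II gene H2-Ab1 45%, for Fdx1l 47.2%, for Sox17 35.5% and 34.4% for Ebf3. Without its highest cell the relative spread was 2.12 for Cd14, 2.08 for Ebf3 and 1.68 for Sox17, so of these Sox17 alone fell below 2, while H2-Ab1 and Fdx1l fell below the mean needed for a value. Neat1, a nuclear long noncoding RNA, had a spread of 2.80 with 11.5% in its highest cell. At the other end stood Rpl26, Rps3a1, Rps15, Rn7sk and Rplp2, with relative spreads of 0.282 to 0.329. These ribosomal protein and small nuclear RNA genes have near-identical copies in the genome, so their counts are uncertain.

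**Figure D3:**
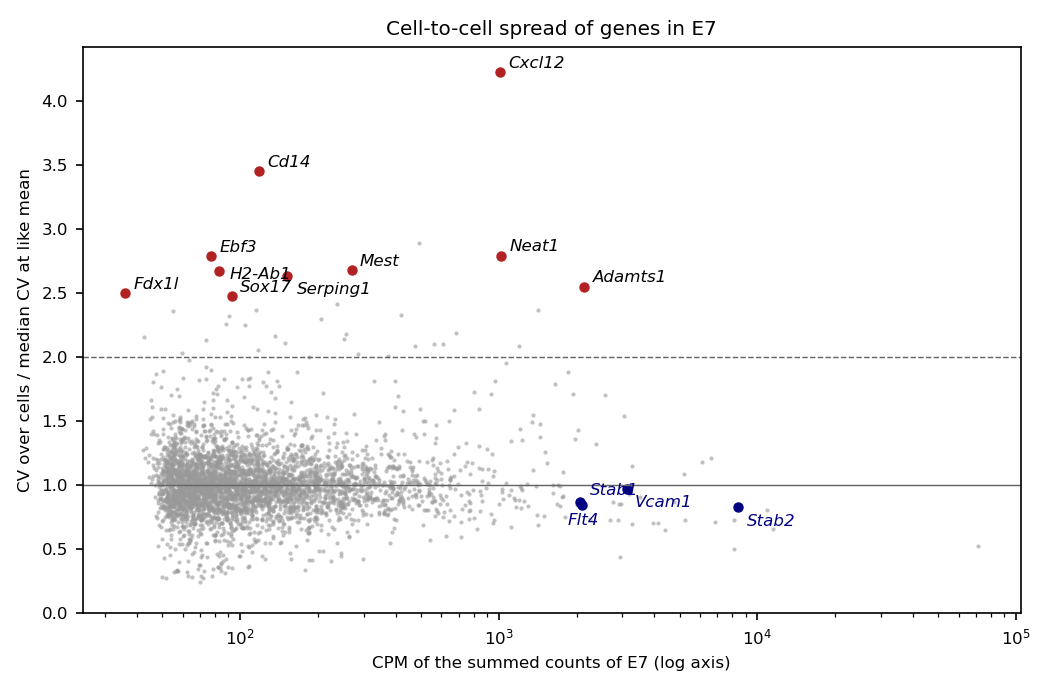
Relative cell-to-cell spread in E7 (CV over cells divided by the median CV at like mean) against the CPM of the summed counts (log axis) for 3953 genes; red points are the 10 named genes of highest spread, blue points the 4 markers, and the dashed line is 2. Cxcl12 stood highest at 4.23 and the markers lay below 1.

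Immediate early genes, which rise within minutes of a stimulus such as tissue dissociation, were the list whose members moved together most from cell to cell. The median rho between 13 of them was 0.551, with 0.757 for Egr1 with Nr4a1 and 0.710 for Fos with Egr1. Their summed level ran from 25.9 to 48549 CPM per cell, with a median of 20139.6. By run it was 15946, 17854 and 23619.7 CPM in young and 26841, 9968 and 20839 CPM in old cells, so old run 2 was lowest and the ages overlapped. Against E1 to E6, 0 of 16 were higher and 2 lower (Atf3 and Ier3), where 2.95% of all tested genes were higher and 7.87% lower. Whether the cells differed before or during isolation was not tested.

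**Figure D4:**
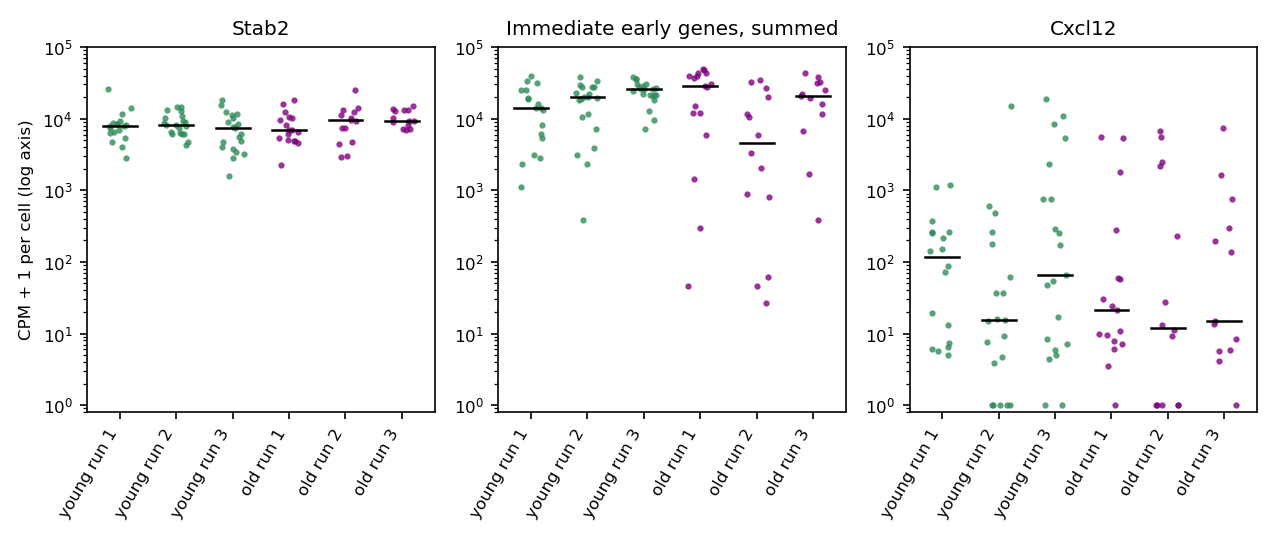
Stab2, the summed immediate early genes and Cxcl12 (CPM + 1, log axis) in each sorted SEC of E7, by run of library numbers; each point is a cell, green young and purple old, and bars are medians. Stab2 was even over the 6 runs, immediate early genes ran from 25.9 to 48549 CPM, and Cxcl12 from 0 to 18612 CPM.

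Within E7, the markers other than Vcam1 showed little difference between the ages. All 4 are guide genes, so their level helped decide which cells are in E7. E7 held 59 of 70 young and 44 of 71 old sorted SEC, and marker levels within it cannot speak for all sorted SEC of an age. Over the 4 markers the median log2 ratio of old to young was 0.02; Stab2 was at 8231 CPM in 61 young and 8758 CPM in 44 old cells. Vcam1 was the marker whose runs did not overlap, at 3401, 4159.6 and 3033 CPM in young and 2815, 2677 and 2239 CPM in old runs (log2 ratio -0.41). Among the largest increases of E7, Adamts5 also had runs apart, at 2075, 1715 and 1707 CPM in young and 774, 657 and 719.6 CPM in old runs (log2 ratio -1.31), as had Ston2 (-0.99). Of 11595 genes, 1322 (11.4%) were at least 2-fold higher and 1207 (10.4%) at least 2-fold lower in old cells. Under 10% of E7 cells carried 561 of the former and 513 of the latter, so much of either count rests on a few cells. Genes with few counts can pass a 2-fold difference without any change, there is no replicate check, and neither count is a number of genes changed by age. With the added demand that all old runs lie on 1 side of all young runs, 345 (2.98%) were higher and 382 (3.29%) lower. Of the same 11595 genes, 613 higher and 657 lower ones had runs apart by any amount. Runs apart, as for Vcam1, Adamts5 and Ston2, were therefore not rare. The rule, over runs that are not replicates, is a filter and not a test.

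Among genes named with that demand, Pkp2, a desmosomal plakophilin, was at 23.4, 7.72 and 36.5 CPM in young and 106, 92.6 and 87.8 CPM in old runs, and it was higher in E7 as a whole (52.7 CPM) than in E1 to E6 (1.46 CPM). Dcaf6 and Slc9a9, an endosomal sodium-proton exchanger, had log2 ratios of 2.09 and 2.08, and Mgp and Ciapin1 those of 3.35 and 2.77. Madcam1 was found almost only in old cells, at 0, 1.08 and 0 CPM in young and 47.1, 64.6 and 84.7 CPM in old runs, in 10 cells in all. Lower in old runs were Npnt, a matrix ligand of an integrin, at 96.7, 145 and 127 CPM in young and 16.2, 44.4 and 10.2 CPM in old, the RNA-binding protein Stau2 (-2.45), the lipopolysaccharide receptor Tlr4 (-2.43) and Gid4 (-2.93). Vwf met the rule as well, but young run 1 was at 184 CPM and the other young runs at 13.4 and 13.0 against 7.39 to 9.09 CPM in old runs, and 1 cell held 69% of its summed CPM. By the same rule the lists held few such genes: 2 of 17 adhesion genes were higher and 0 lower, 1 of 17 interferon-response genes was higher and 2 lower, and every other list had at most 1 gene in either direction. Without the demand on runs, 4 of 7 erythroid and 5 of 20 angiocrine genes were 2-fold lower, against 10.4% of all genes, but with it 0 and 1. Age, run and any mouse behind a run cannot be told apart in these cells.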

How the data were processed

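The deposited values are read counts per gene and cell, made by the authors with GSNAP (2015-09-29) on GRCm38.p4 and HTSeq, unstranded, with Ensembl genes. Of 661 cells, 418 were used (the endothelial clusters and MSC-L) and 243 were left out as other stroma. The 46078 entries held 270 repeated symbols, which were summed, giving 45771 nuclear and 37 mitochondrial genes. Counts of a group were summed and scaled to CPM of nuclear counts, and log2 ratios used a pseudocount of 1 CPM. Genes were named by rule, most from those with 1000 or more counts: the 15 largest increases carried by 50% or more of E7 cells and higher than in each of E1 to E6, the 10 largest decreases carried by 50% or more of E3 and E4 cells, both also within the library range of E7, the 10 highest and 5 lowest relative spreads, and the 5 largest changes each way by age with runs apart, carried by 25% or more of the cells of an age. Predicted gene models were left out of these ranks. Members of 27 gene lists were named as well. The members of E7 and the lists were chosen with earlier results of these data known. No test was run, since the mouse of a cell is not known and the clusters were made from the same genes. Alternatives changed the scaling, count filter, pseudocount, depth, cells compared and runs. Tables were handled with pandas 2.3.3 and numpy 2.4.6 under Python 3.11.15, intervals and correlations came from scipy 1.17.1 and plots from matplotlib 3.10.9; the code was checked on simulated data. Exon lengths and coordinates came from GENCODE, matched by symbol.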

Additional observations from a re-analysis of the deposited data

How the results depend on the processing

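Of 85 alternative values of the counts of genes, 67 stayed within 1.5 times the main count. Genes at least 4-fold lower in E7 numbered 2118 with a pseudocount of 0.1 CPM, which by construction raises ratios of genes near 0. By age, 2226 genes were higher and 1996 lower with no filter on low counts, where more genes were counted, and 866 and 751 with cells thinned, where fewer were. Genes of high spread numbered 61 in old cells alone and 23 without the highest cell of each gene; the cause was not tested. Leaving out each run in turn gave 562 to 672 genes higher and 561 to 871 lower in old cells with runs apart, a rule that is easier to meet with a run fewer. Among 7910 values of named genes and lists, a change of sign was counted only where the main value was a called difference. Smaller values, such as the list medians that changed sign, and relative spreads could not count. Of the values that could, 8 were log2 increases where the main value was a called decrease in E7. Without cells carrying markers of another type these were Ccl9 (0.0553), Mpo (0.47) and Runx2 (0.00745), and leaving out each run in turn gave Mpo values of -2.73 to 0.55, the latter without old run 2. Against E1 to E6 of the same library range they were Cxcl2 (0.13) and Wnt9b (0.19), and against E3 to E6 only, Il7 (0.24) and Pdgfrb (0.0570); the cause was not tested.

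The log2 ratio of Stab2 ranged from 3.42 to 6.56 over all alternatives, Stab1 from 2.14 to 3.02, Flt4 from 2.54 to 3.38 and Vcam1 from 2.44 to 4.52. The named largest increases ranged from 2.94 to 8.62. Of the 469 genes higher in E7, 245 (52.2%) were called within its library range when the count filter was also applied to those cells alone and 326 (69.5%) with equal weight of the clusters. Of the 36 genes of high spread, 26 were called without cells carrying markers of another type and 22 in young cells alone. No paired analysis was possible because the labels name no mouse. Differences between ages rest on cells pooled over mice, and genes carried by few cells are limited by the number of cells and by the depth of each.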

Other observations

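Several genes outside the lists, chosen after their values were seen, add to the profile of E7. Gpr182, a decoy receptor for chemokines, was at 1036 CPM in E7 and 64.3 CPM in E1 to E6 and was carried by 102 of 105 cells. Dnase1l3, a secreted nuclease that digests DNA in chromatin, was at 1303 against 81.8 CPM and was carried by all 105 cells. Both were even from cell to cell, with relative spreads of 0.897 and 0.837. Both are also guide genes, so this evenness is not independent of the choice of cells.

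Cfd, complement factor D, was the opposite in its spread. It was at 252 CPM in E7, 8.43 CPM in E1 to E6 and 0.284 CPM in MSC-L, and 40 E7 cells carried it, up to 4095 CPM, while the median cell had 0. Cyr61 and Ctgf, targets of the YAP pathway, were carried by 64 and 54 cells, with a rho of 0.339 between them over the cells and relative spreads of 2.37 and 2.33. Angptl4, an inhibitor of lipoprotein lipase, ran up to 5845 CPM around a median of 268. By contrast Gpx3, Hp and Igfbp5 were high in MSC-L, at 6575, 6030.2 and 6311 CPM, and Gpx3 followed Cxcl12 over E7 cells with a rho of 0.610, whereas Cfd did so with 0.196.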
